A study of Arabidopsis thaliana with 9 samples.

Results

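The 6 libraries of 2 *Arabidopsis thaliana* mutants, *bdr1,2,3* and *fpa*, were set as 1 side against the 3 libraries of wild type, to find the genes that were higher or lower in both mutants. All 9 libraries of the series enter this comparison. Every library came from seedlings of the Col-0 ecotype that were 8 days old, raised on MS plates at 21 °C with 16 h of light and 8 h of dark after the seeds had spent 4 days at 4 °C. The *bdr1,2,3* mutant joins insertions in *BDR1* (AT5G25520), *BDR2* (AT5G11430) and *BDR3* (AT2G25640), which were brought together by crossing, and *fpa* is a single mutant that carries the *fpa-7* allele of AT2G43410. Wild type carries none of these alleles. Replicate numbers are 1, 5 and 12 in wild type, 2, 4 and 7 in *bdr1,2,3*, and 3, 6 and 8 in *fpa*. Each mutant is 1 line, and whole seedlings were ground, so fewer cells of a type and less RNA per cell cannot be told apart.

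FPA is an RNA-binding protein of the autonomous flowering pathway, which promotes flowering by keeping down *FLC*, a MADS-box repressor of flowering. It acts on the 3′ ends of transcripts. BDR proteins carry a SPOC domain, which FPA also has, and a central domain of the kind found in the elongation factor TFIIS, and they act where the polymerase leaves one gene and nears the next. The comparison asks which genes differ from wild type in the same direction in both lines.

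Reads per gene were counted for 33602 identifiers, of which 20413 had enough counts to be tested. Library totals ran from 8676610 to 26861793 counts. Wild-type replicate 12 was the shallowest library and stood apart from the others on the first principal component, with a score of -97.7 against -11.7 to 34.0 for the other 8 libraries. Its highest correlation with any other library was 0.953, and that of each other library was at least 0.975. The authors' own normalized table holds the other 8 libraries only. Results are therefore given with all 9 libraries and again without replicate 12. Levels are counts relative to the library total as scaled by TMM (CPM), and a fold change is on the log2 scale of the fitted counts, mutants minus wild type.

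The mutated genes were read first. *BDR1* had 42.0, 29.1 and 41.0 CPM in wild-type replicates 1, 12 and 5, and 1.03, 1.95 and 0.894 CPM in *bdr1,2,3* replicates 2, 4 and 7. In *fpa* it had 49.1, 52.0 and 45.3 CPM, so only the *bdr1,2,3* libraries were low. *BDR2* was lower in *bdr1,2,3* by less, with a log2 fold change of -0.85 (SE 0.18, adjusted p = 0.0177, Benjamini-Hochberg, in the quasi-likelihood test of edgeR), and *BDR3* had -0.76 (SE 0.29), which did not pass (adjusted p = 0.226 from the same edgeR test). The *BDR2* call was lost without wild-type replicate 1 or 5 or *bdr1,2,3* replicate 2 or 7. *FPA* had 45.5, 41.1 and 37.9 CPM in *fpa*, and 56.8, 42.3 and 63.2 CPM in wild type. This difference of -0.39 (SE 0.18) did not pass either (adjusted p = 0.248 from the same edgeR test). In *bdr1,2,3*, *FPA* had 41.1, 43.2 and 28.3 CPM. That difference of -0.53 (SE 0.18) did not pass (adjusted p = 0.172 from the same edgeR test). Reads summed over a gene hold no record of whether its transcript was whole, so the *FPA* count neither checks nor contradicts the *fpa* label.

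In the pooled comparison the mean of both mutants was set against wild type, with the spread taken within the 3 genotypes. It called 150 genes higher, 0.735% of those tested, and 448 lower, 2.19% (598 in all, 2.93%), at an adjusted p-value under 0.05. A pooled call can rest on 1 mutant alone, so a gene was counted as moving the same way in both only if it was called and its 6 mutant libraries were without exception higher, or lower, than each of the 3 wild-type libraries. This held for 128 higher genes (0.627% of all tested) and 308 lower genes (1.51%), 436 in all (2.14%). With or without a call, the mutant libraries lay above all wild-type libraries in 4.25% of tested genes and below them in 4.33%. The calls depend on how the spread is measured. With the 6 mutant libraries as 1 group, so that differences between the mutants count as spread, edgeR called 39 genes higher (0.191%) and 36 lower (0.176%), and all of these were among the 128 and the 308. In that fit 1528 higher and 1745 lower genes had an unadjusted p-value under 0.05.

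The median pooled log2 fold change of the higher genes was 1.1, against -0.79 for the lower genes, and 0.00 over all tested genes. The smallest called changes were 0.46 among the higher genes and -0.40 among the lower genes. In both mutants the size exceeded 1 on the log2 scale for 57 higher and 42 lower genes. Tested directly against each other, they differed in 12 of the 128 higher genes and 59 of the 308 lower genes, beside 3.54% of all tested genes, and the change was larger in *bdr1,2,3* in 8 of those 12 and 44 of those 59. Each mutant on its own passed the threshold in the same direction for 48 of the higher genes (0.235% of tested genes) and 47 of the lower genes (0.23%). Over all tested genes *bdr1,2,3* alone had 0.603% called higher and 1.88% lower, and *fpa* alone 1.28% and 1.82%. These single comparisons share the wild-type libraries.

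**Figure D1:**
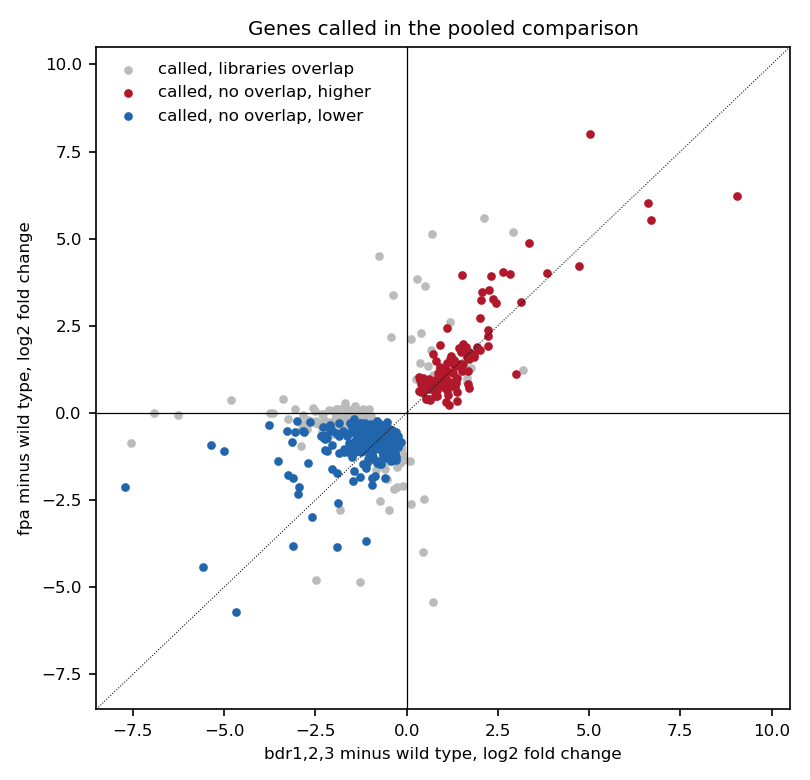
Log2 fold change against wild type in *bdr1,2,3* (horizontal axis) and in *fpa* (vertical axis) for the 598 genes called in the pooled comparison, 1 point per gene, with equal change on the dotted line. The 128 red and 308 blue points are genes whose mutant libraries do not overlap wild type, and both axes share the wild-type libraries, which places points toward the dotted line by construction.

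Without wild-type replicate 12 the pooled comparison called 142 genes higher (0.681%) and 374 lower (1.79%), and 134 and 277 of these had no overlap. Of the 128 higher genes 95 were still called, and of the 308 lower genes 203. The median fold change moved from 1.1 to 1.04 for the higher genes and from -0.79 to -0.63 for the lower genes. None of the 128 higher genes but 50 of the 308 lower genes moved by over 1.5 times. Replicate 12 thus bore more on the lower genes. Leaving out each library in turn, 53 higher and 114 lower genes were called in all 9 fits.

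Flowering regulators held the higher gene with the largest change shared by both mutants among genes whose mean log2 CPM was 1 or more. *FLC* (chromosome 5, 3173382 to 3179448, minus strand) had 10.1, 12.1 and 18.0 CPM in wild-type replicates 1, 12 and 5. It had 125, 109 and 124 CPM in *bdr1,2,3* and 103, 129 and 136 CPM in *fpa*. The 6 mutant libraries lay far above wild type and the mutants overlapped each other. The pooled log2 fold change was 3.16 (SE 0.19), 8.93-fold, with an adjusted p of 2.44e-06 from the edgeR test, and it was 3.09 without replicate 12. Between the mutants *FLC* differed by -0.04 (adjusted p = 0.959 from the same edgeR test). The annotation holds an antisense RNA over the whole of *FLC*, and the strand setting of the counting is not given in the sources used here.

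The other members of the *FLC* clade are MADS-box genes that also act in the timing of flowering. Of the 6 tested members, counting *FLC* itself, 3 including *FLC* were called higher, beside 0.735% of all tested genes, and none lower. The list's median was 0.94 (0.73 without replicate 12) against 0.00 for all tested genes. *MAF4* had 2.38, 0.993 and 3.44 CPM in wild type, 6.91, 9.39 and 7.15 CPM in *bdr1,2,3* and 4.36, 5.10 and 7.37 CPM in *fpa*, without overlap (log2 fold change 1.43, SE 0.31, adjusted p = 0.0251 from edgeR). In *fpa* alone *MAF4*, at 1.19, did not pass (adjusted p = 0.0749 from edgeR), and its pooled call was lost in 3 of 13 refits. *MAF5* was called in the pooled comparison, but 1 *fpa* library, with 0.566 CPM, lay below the highest wild-type library, with 0.673 CPM. Its log2 fold change was 3.18 in *bdr1,2,3* and 1.23 in *fpa*, and the mutants differed (adjusted p = 0.0444 from edgeR). The pooled call of *MAF5* was lost in 7 of its 13 refits. *MAF1*, *MAF2* and *MAF3* had pooled log2 fold changes of 0.16, 0.45 and 0.25 and did not pass.

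*SOC1* and *FT*, which promote flowering and are known targets of FLC repression, were lower in both mutants. *SOC1* (chromosome 2, 18807505 to 18811125, minus strand) had 12.4, 9.79 and 11.3 CPM in wild type, 2.19, 1.35 and 2.06 CPM in *bdr1,2,3*, and 1.53, 2.02 and 0.714 CPM in *fpa*. Its pooled log2 fold change was -2.79 (SE 0.27, adjusted p = 6.31e-05 from edgeR). *FT* (chromosome 1, 24331373 to 24333999, plus strand) had 3.16, 4.96 and 2.13 CPM in wild type, 0.772, 0.836 and 1.03 CPM in *bdr1,2,3*, and 0.227, 0.0531 and 0.381 CPM in *fpa*. No mutant library reached wild type for either gene. The pooled log2 fold change of *FT* was -2.89 (SE 0.45, adjusted p = 0.00329 from edgeR), and *bdr1,2,3* alone, at -1.92, did not pass (adjusted p = 0.0734 from edgeR). The other 5 tested members of this list, *CO*, *FD*, *AGL24*, *SPL4* and *SPL5*, did not pass. Over all tested genes 2.19% were called lower. Among 8 autonomous pathway genes, which include *FPA*, none was called in the pooled comparison. Without replicate 12 the only pooled call was *FPA* itself, at -0.60 (adjusted p = 0.0306 from edgeR). In that fit *FPA* passed alone in *bdr1,2,3* (adjusted p = 0.03 from edgeR) and not in *fpa* (adjusted p = 0.0815 from edgeR). With all libraries 1 of the 8 had an unadjusted p-value under 0.05, and DESeq2 called none.

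Aliphatic glucosinolates are sulfur-rich defense compounds of the mustard family, made from methionine by lengthening its side chain, building the glucosinolate core and altering the side chain. Among the 24 lists this one had the most members called higher. Of the 21 tested members 14 were called higher and none lower, beside 0.735% of all tested genes, and 13 of the 14 had no overlap. All 21 fitted log2 fold changes were above 0, with a median of 1.43 in the pooled comparison, 1.43 in *bdr1,2,3* and 1.53 in *fpa*. Without replicate 12 there were 13 calls and a median of 1.53. The list's summed level was 535 to 674 CPM in wild type, 871 to 1005 CPM in *bdr1,2,3* and 831 to 1150 CPM in *fpa*.

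Of the chain-lengthening genes on the list, 6 were called and 2 were not. *MAM1*, which encodes the synthase that starts each round, had 18.8, 18.3 and 15.9 CPM in wild type, 84.5, 80.9 and 81.6 CPM in *bdr1,2,3*, and 96.7, 43.0 and 59.9 CPM in *fpa*. The lowest mutant library thus had over 2 times the level of the highest wild-type library, and the *fpa* libraries spread more than those of *bdr1,2,3*. The pooled log2 fold change was 2.07 (SE 0.21, adjusted p = 0.000111 from edgeR). *IMD1*, an isopropylmalate dehydrogenase of the same cycle, had 13.8, 14.2 and 11.7 CPM in wild type and 35.6 to 53.2 CPM over the 6 mutant libraries. It had the smallest p-value of the list, with a log2 fold change of 1.7 (SE 0.15, adjusted p = 3.21e-05 from edgeR). *BCAT4*, which deaminates methionine for entry to the cycle, *BASS5*, a plastid transporter of its intermediates, and *IPMI2*, an isomerase subunit, had 1.64, 1.4 and 1.36. *MAM3* was called at 1.35, but its *bdr1,2,3* libraries, with 3.47, 1.75 and 3.85 CPM, overlapped wild type, with 2.48, 1.99 and 2.28 CPM. *BCAT3* (0.24) and *IIL1* (0.13), which also serve the synthesis of other amino acids, did not pass.

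Core synthesis held called genes with changes of unequal size. *CYP79F1*, the cytochrome P450 that acts first on the lengthened amino acids, had 7.40, 11.8 and 7.92 CPM in wild type, 36.5, 35.1 and 52.7 CPM in *bdr1,2,3*, and 53.5, 26.6 and 40.9 CPM in *fpa*. Its pooled log2 fold change was 2.22 (SE 0.24, adjusted p = 0.000182 from edgeR). *CYP79F2*, its neighbor on the same strand across 1183 bp, had 1.67. The authors kept unique alignments only, and these 2 paralogs can lose reads where their sequences match, so their values are uncertain in that respect. *CYP83A1*, which takes the next step, had 30.0, 48.6 and 31.3 CPM in wild type and 86.2 to 157 CPM in the mutants (1.72, SE 0.22, adjusted p = 0.000771 from edgeR). *GSTF11*, a glutathione transferase of the pathway, had 1.77, and it overlaps *NAC045* on the opposite strand by 1096 bp. *SOT17*, a sulfotransferase of the final core step, was called at 0.76, and its paralog *SOT18* (0.42), the lyase gene *SUR1* (0.39) and the glucosyltransferase gene AT2G31790 (0.24) did not pass.

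Side-chain genes and regulators were mixed. *AOP2*, a side-chain gene that the annotation gives as truncated in Col-0, had 2.07, 1.13 and 2.09 CPM in wild type and 4.36 to 10.5 CPM in the mutants, a log2 fold change of 1.90. *FMOGS-OX1*, which oxidizes the side chain, had 1.48. The transcription factor *MYB29* had 1.66, 0.567 and 1.61 CPM in wild type and 3.91 to 5.42 CPM in the mutants, at 1.77 (SE 0.31, adjusted p = 0.00644 from edgeR). Its paralogs did not pass, with 0.42 for *MYB28* and 1.43 for *MYB76*, whose CPM stayed below 1 in every library.

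**Figure D2:**
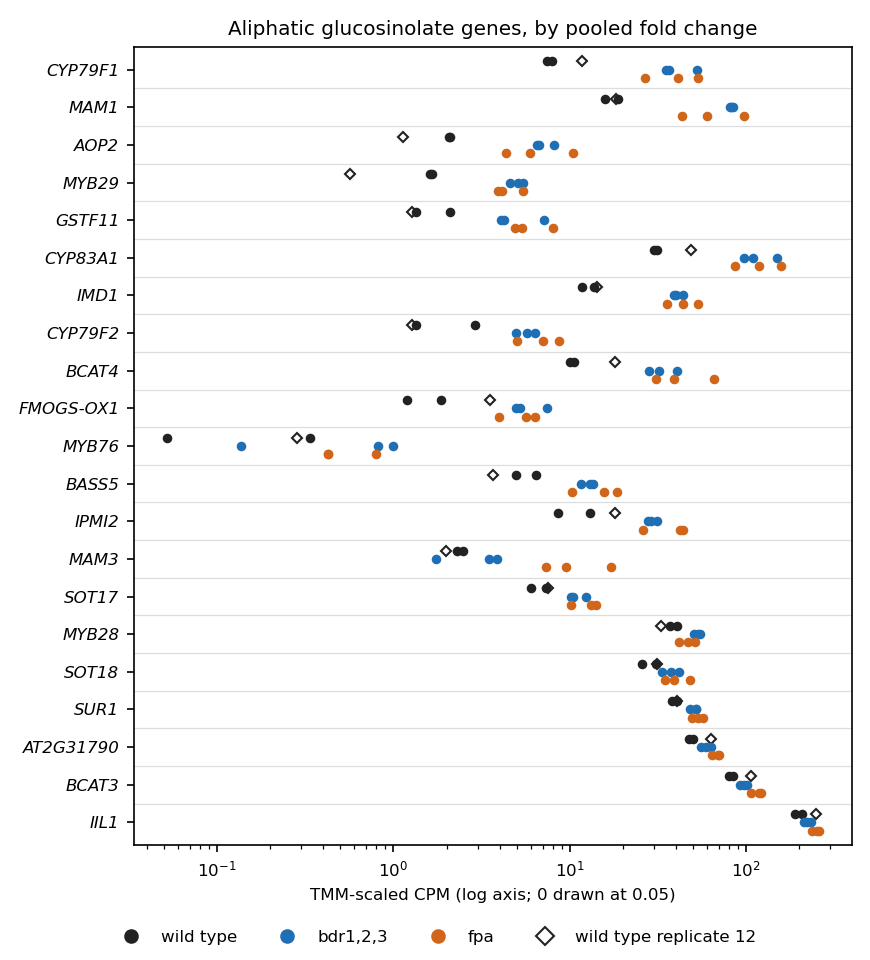
TMM-scaled CPM on a log axis for the 21 tested aliphatic glucosinolate genes, 1 point per library, ordered by pooled fold change, with wild type in black, *bdr1,2,3* in blue, *fpa* in orange and wild-type replicate 12 as an open diamond. The genes in the upper part, from *CYP79F1* to *FMOGS-OX1*, have all 6 mutant points to the right of the wild-type points, while *MAM3* overlaps in *bdr1,2,3* and the lowest rows differ little.

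Other higher genes of the named 12 were not members of a list. AT3G09405, annotated as an esterase that acts on pectin, had 4.09, 1.99 and 2.46 CPM in wild type, 10.9, 16.2 and 8.25 CPM in *bdr1,2,3* and 22.9, 18.2 and 17.6 CPM in *fpa* (2.37, SE 0.27, adjusted p = 0.000266 from edgeR). Its neighbor AT3G09410, of the same annotated family, lies on the same strand, overlaps it by 37 bp and was lower in both mutants (-0.58). AT2G18193, annotated as a P-loop nucleoside triphosphate hydrolase, had 3.37 and 3.77 CPM in wild-type replicates 1 and 5 but 0.284 CPM in replicate 12, with 8.80 to 18.1 CPM in the mutants. It was called with replicate 12 (2.3) and without it (1.96). *AK3*, an aspartate kinase, was higher at 1.90, and a gene on the opposite strand, AT3G02010, overlaps it by 2537 bp and had 0.02. AT2G19550 (2.89) and *CHX21*, a cation/proton exchanger (2.77), completed the 12, both below 1 CPM in every wild-type library. Genes on the opposite strand overlap *CHX21* by 965, 363 and 204 bp.

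The lower gene with the largest shared change at this level of expression, AT3G01345, is 1 of 4 tested loci known to vary in their epigenetic state between plants of the same strain. It had 7.87, 12.3 and 10.3 CPM in wild type, 0.257, 0.199 and 0.138 CPM in *bdr1,2,3*, and 0.113, 0.691 and 0.571 CPM in *fpa*, a log2 fold change of -5.0 (SE 0.35, adjusted p = 7.37e-06 from edgeR). *MRD1* of the same list had 3.73, 7.94 and 5.86 CPM in wild type and at most 0.300 CPM in any mutant library, with no count at all in *fpa* replicate 3 (-5.20, SE 0.48, adjusted p = 4.15e-05 from edgeR). Both were off or nearly off in all 6 mutant libraries. *MRD1* overlaps *HEI10* on the opposite strand by 1446 bp, and *HEI10* had -1.04 and did not pass (adjusted p = 0.2 from edgeR). The other 2 loci of the list were not called. This list was chosen with earlier results of these data known. Its 2 lower calls among 4 tested loci, beside 2.19% of all tested genes, are therefore a description only. Each genotype is 1 line, so a state that a line inherited apart from its mutation cannot be told apart from an effect of the mutation.

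The remaining lower genes of the named 12 spanned several functions. AT1G20390, annotated as a pseudogene, had 16.1, 11.3 and 16.1 CPM in wild type and 0.825 to 4.14 CPM in the mutants (-2.55). *QWRF3* had -2.24 and overlaps *GAUT10* on the same strand by 526 bp, which had -0.39 and did not pass. *CRK28*, a receptor-like kinase of the cysteine-rich family, had 10.5, 8.51 and 9.30 CPM in wild type, 3.13, 5.25 and 1.86 CPM in *bdr1,2,3* and 2.72, 3.35 and 2.95 CPM in *fpa* (-1.55), and it overlaps *CRK29* on the same strand. *RMV1*, an amino acid permease family member that takes up polyamines, had -1.71, AT1G49990, an F-box protein, -2.07, and AT2G40815, with a lipid-binding domain, -1.56. On the opposite strand AT2G09200 and AT2G40810 overlap AT2G40815 by 587 and 60 bp. AT5G09240 had -3.52 in *bdr1,2,3* and -1.39 in *fpa*, which did not pass on its own (adjusted p = 0.083 from edgeR), and the mutants differed (adjusted p = 0.0244 from edgeR).

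Replicate 12 raised the wild-type level of some of these genes. *AGP26*, an arabinogalactan protein of the cell wall, had 71.9 CPM in replicate 12 and 28.1 and 31.9 CPM in replicates 1 and 5, against 11.8 to 20.8 CPM in the mutants. Its fold change went from -1.38 to -0.86 without that library and stayed called (adjusted p = 0.00644 from edgeR). AT2G47935 overlaps *AGP26* by 432 bp on the opposite strand. AT1G65490 went from -1.84 to -1.39. *RTFL21*, a gene for a small ROTUNDIFOLIA-like peptide, had 3.05, 5.81 and 3.73 CPM in wild type and lost its call without replicate 12 (-1.55, adjusted p = 0.0614 from edgeR).

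**Figure D3:**
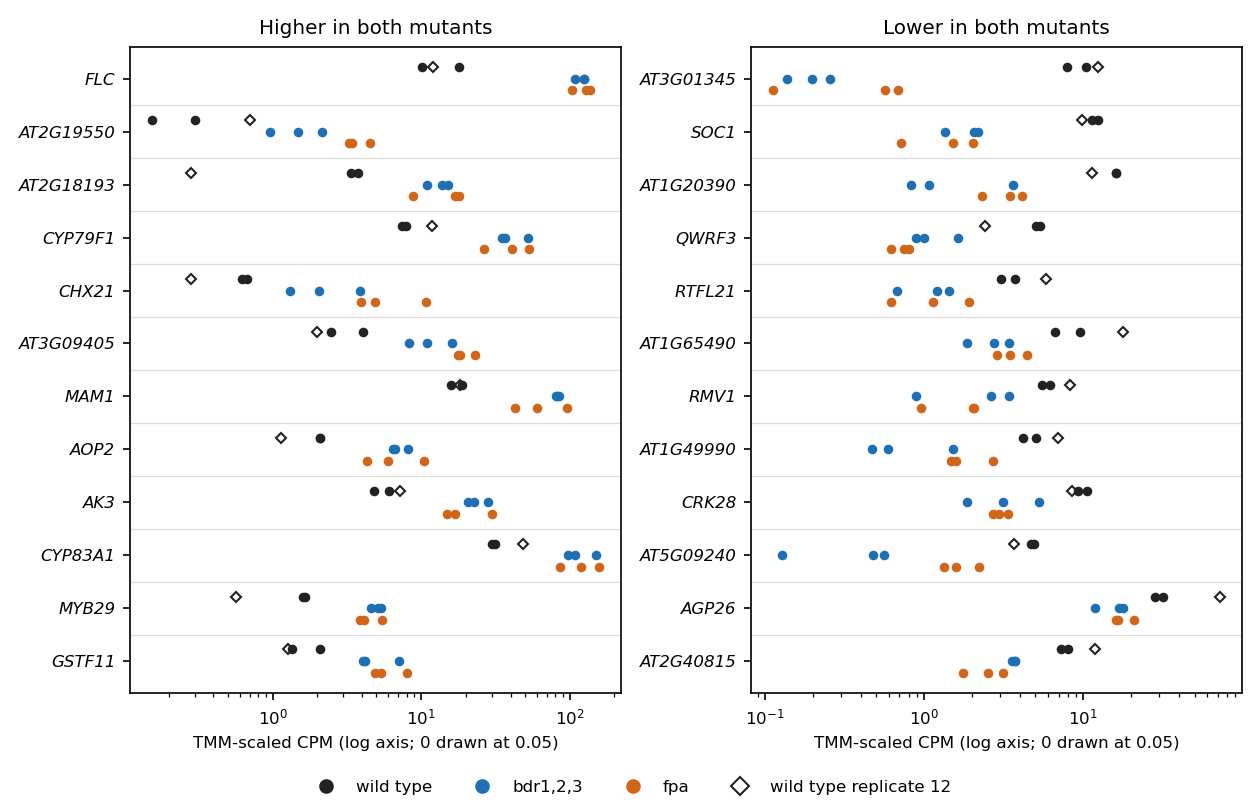
TMM-scaled CPM on a log axis for the 12 higher (left) and 12 lower (right) genes with the largest change shared by both mutants, 1 point per library, with wild type in black, *bdr1,2,3* in blue, *fpa* in orange and wild-type replicate 12 as an open diamond. Genes were chosen for having no overlap between mutant and wild-type points, so its absence in every row is given by the choice. The open diamond is far from the other black points for AT2G18193, *MYB29*, AT1G65490 and *AGP26*.

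Root hairs are outgrowths of single epidermal cells that take up water and ions, and some genes particular to them were called higher. Of 23 tested members of a root hair list, 6 were called higher, all without overlap, beside 0.735% and 0.627% of all tested genes, and none lower, with a median of 0.66 (0.64 without replicate 12, again with 6 calls). *XTH13*, an enzyme that remodels xyloglucan in the wall, had 1.60, 1.28 and 1.79 CPM in wild type, 3.52, 3.82 and 3.85 CPM in *bdr1,2,3* and 4.76, 4.57 and 5.52 CPM in *fpa* (1.42, SE 0.25, adjusted p = 0.00793 from edgeR). *RHS19*, a peroxidase, had 9.94 to 12.8 CPM in wild type and 16.8 to 30.5 CPM in the mutants (1.0), and *RHS15* and *RHS13* had 1.02 and 0.69. *XTH14* (0.76) and *COW1* (1.35), a phosphatidylinositol transfer protein of root hair growth, were called as well. The master regulators *RHD6* (1.21) and *RSL4* (1.02) did not pass. The call of *RHS13* was lost in 7 of its 14 refits.

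The share of root tissue was read from other markers. Of 20 tested genes of a root tissue list none was called higher and 1 lower, beside 0.735% and 2.19% of all tested genes. Their median was -0.01, and their summed level was 2976 to 3511 CPM in wild type, 2682 to 3089 CPM in *bdr1,2,3* and 3538 to 3966 CPM in *fpa*. The root hair list summed to 203 to 252 CPM in wild type, 267 to 310 CPM in *bdr1,2,3* and 265 to 343 CPM in *fpa*, so both mutants lay above wild type for root hair genes, whereas for the root list *fpa* lay above wild type and *bdr1,2,3* reached below it. The root gene called lower was *PHT1;1*, a phosphate transporter, with 45.1, 68.5 and 63.6 CPM in wild type and 26.4 to 39.3 CPM in the mutants (-0.83, SE 0.14, adjusted p = 0.00553 from edgeR). Markers of dividing cells had no call among 19, with 93.9 to 110.1 CPM summed in wild type and 102 to 153 CPM in the mutants. Their fitted log2 fold changes were above 0 in 17 and below 0 in 2. The median was 0.29 (0.12 in *bdr1,2,3*, 0.41 in *fpa*), and 0.19 without replicate 12. Of 9 seed storage genes 4 were expressed enough to be tested, with no call, and their median went from -0.43 to 0.08 without replicate 12. At an unadjusted p-value under 0.05 these 2 lists held 3 and 1 members, and DESeq2 called none. The part that tissue makeup has in these results was not tested.

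Few photosynthesis genes were called. Of 50 tested light reaction genes 2 were called lower (4%, beside 2.19% of all tested genes) and none higher, with a median of -0.12 that turned to 0.06 without that library. Their summed level was 110050 CPM in replicate 12 and 71011 and 72279 CPM in the other wild-type libraries, and it was 81900 to 84764 CPM in *bdr1,2,3* and 60681 to 70900 CPM in *fpa*. Without replicate 12 the mutants thus lay on opposite sides of wild type. *FED A*, a ferredoxin, had 1118, 1812 and 1221 CPM in wild type and 811 to 1046 CPM in the mutants (-0.63, and -0.39 without replicate 12, called both ways), and its call was lost in 8 of 14 refits. *LHCA5*, an antenna protein of photosystem I, was called through *fpa*, at -1.11, against -0.18 in *bdr1,2,3*. The same held for *PPO1*, a protoporphyrinogen oxidase and the 1 call among 20 chlorophyll synthesis genes, at -1.13 and -0.16.

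In the Calvin cycle, which fixes carbon dioxide, 2 of 20 tested genes were called lower, beside 2.19% of all tested genes, and 19 of the 20 fitted values were negative, with a median of -0.36, or -0.14 without replicate 12. *GAPB*, a glyceraldehyde phosphate dehydrogenase subunit, had 2322, 4236 and 2538 CPM in wild type, 1193, 1439 and 1436 CPM in *bdr1,2,3* and 2229, 2097 and 2317 CPM in *fpa*. The *fpa* libraries thus lay just below the lowest wild-type library. Its fold change went from -0.81 to -0.49 without replicate 12, a move of over 1.5 times, with the call kept there but lost in 6 of 14 refits. *RCA*, Rubisco activase, had -0.52, a call lost in 9 of 14 refits. Aquaporins, the water channels of membranes, had 1 call among 19, *TIP2;1*, with 3350 CPM in replicate 12, 1486 and 1604 CPM in the other wild-type libraries and 930 to 1262 CPM in the mutants. Its fold change went from -0.94 to -0.47, its call was lost in 7 of 14 refits, and the list's median from -0.36 to -0.08.

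Among stress and hormone lists few members were called. In the jasmonate list 3 of 22 were higher, beside 0.735% of all tested genes. *AOC2*, an allene oxide cyclase of jasmonate synthesis, had 84.6, 94.2 and 93.6 CPM in wild type, 157, 162 and 164 CPM in *bdr1,2,3* and 153, 111 and 163 CPM in *fpa* (0.74, SE 0.13, adjusted p = 0.00762 from edgeR). *LOX2*, a lipoxygenase of the same route, had 0.62, a call lost in 9 of 14 refits, while the transcription factor *ORA59* had 1 *fpa* library, with 2.18 CPM, inside the wild-type range and lost its call without replicate 12 (1.29, adjusted p = 0.0625 from edgeR). The list's median was 0.01.

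The dehydrin *LTI30* was higher in both mutants, with 12.3, 6.24 and 11.7 CPM in wild type and 17.7 to 22.5 CPM in the mutants (1.02, SE 0.18, adjusted p = 0.00826 from edgeR). *KIN2*, of the same cold and drought list, was called lower through *fpa* alone (-1.36, against -0.08 in *bdr1,2,3*) and lost its call without replicate 12. *LDOX*, an anthocyanidin synthase, was the 1 call among 16 flavonoid genes, with 1, 2 and 5 counts in wild type and 11 to 30 in the mutants (2.81, adjusted p = 0.0325 from edgeR, lost in 8 of 13 refits). *PBS3*, an enzyme of salicylic acid synthesis, was the 1 call among 16 salicylic acid defense genes (-2.65), and it was lost in 8 of 13 refits, among them those without wild-type replicate 1 or 5. AT5G59720, a small heat shock protein gene, was the 1 call among 19 heat shock genes, with 8, 0 and 0 counts in wild type and 12 to 53 in the mutants, and the call was lost in 9 of 13 refits, that without replicate 12 among them. *NRT1.7*, a nitrate transporter, was the 1 call among 18 nitrogen genes (-0.69). Over all tested genes 0.735% were called higher and 2.19% lower, so a single call in a list of this length says little about the list. None of the tested genes of the clock (18), iron (25), auxin (12), polyadenylation (12) and PAF1 complex (6) lists was called. At an unadjusted p-value under 0.05 these lists held 3, 6, 1, 0 and 2 members in that order, and DESeq2 called 1 clock gene, 1 iron gene and none of the others.

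**Figure D4:**
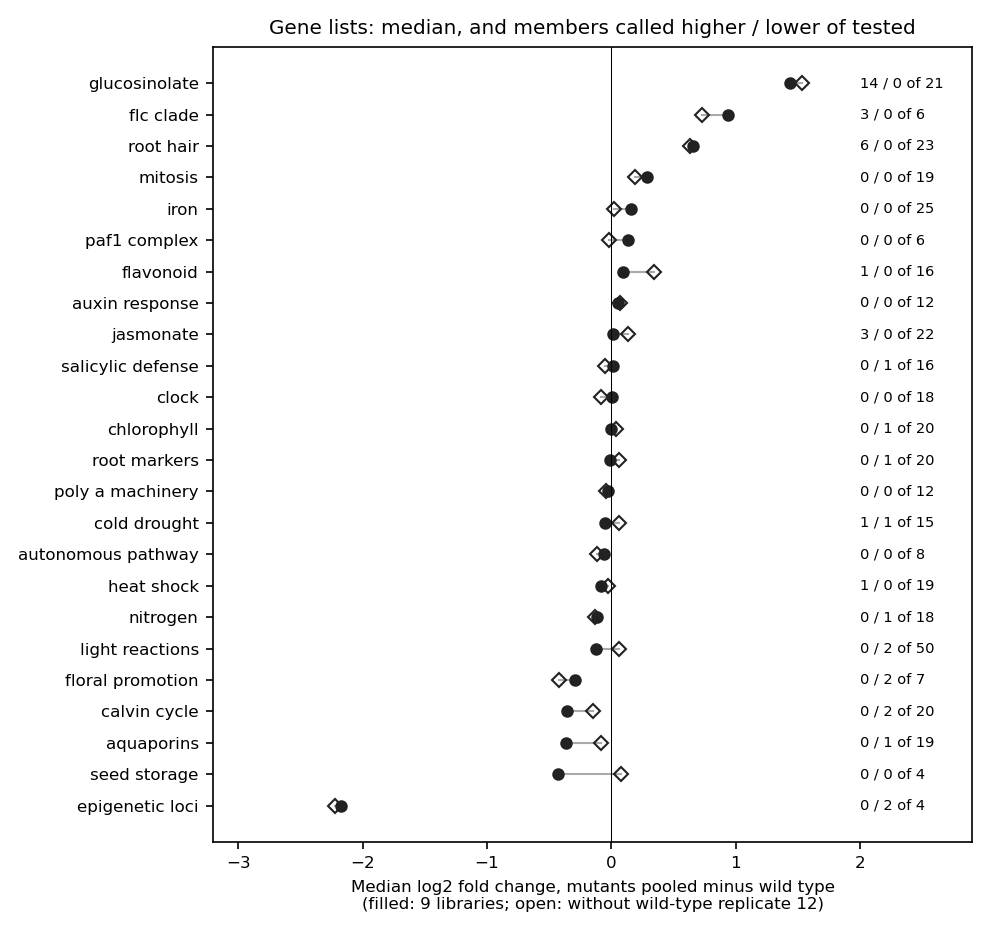
Median pooled log2 fold change of the tested members of 24 gene lists, filled for all 9 libraries and open without wild-type replicate 12, with the members called higher and lower of those tested printed at the right. The glucosinolate list lies highest at 1.43 with 14 of 21 called higher, and the Calvin cycle, aquaporin and seed storage lists move toward or past 0 when replicate 12 is left out.

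What the genes share on the chromosome was described without a test. The upstream neighbor is the nearest gene annotated as coding for a protein, taken on the side where transcription starts. Among tested protein-coding genes it lay on the same strand for 51.2% (10136 of 19797), at a median distance of 848 bp. For the lower genes it was on the same strand for 67.0% (201 of 300), at a median of 299 bp, and the lowest quartile lay at 29.8 bp. The higher genes had 66.4% on the same strand (83 of 125) but a median of 780 bp, close to that of all genes. Without replicate 12 the lower genes had 69.1% and 265 bp, and the higher genes 66.4% and 798 bp. The lower genes were also more highly expressed, with a median log2 CPM of 5.01 against 3.95 for all tested genes, and the part of expression level in these distances was not tested.

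The genes were then split by the mutant that was called on its own. Lower genes called in both mutants on their own (46 with a neighbor) had a median of 175 bp with 65.2% on the same strand, and those called only in *bdr1,2,3* (115) had 124 bp with 85.2%. Those called only in *fpa* (90) had 512 bp with 50%, and those called in neither alone (49) had 1662 bp with 57.1%. Among the higher genes the neighbor was on the same strand for 73.9% of those called in both, 71.0% of those called only in *bdr1,2,3* and 54.3% of those called only in *fpa*, at medians of 795 bp, 995 bp and 528 bp. In both directions the strand share of the genes called only in *fpa* was thus nearest to the 51.2% of all genes.

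**Figure D5:**
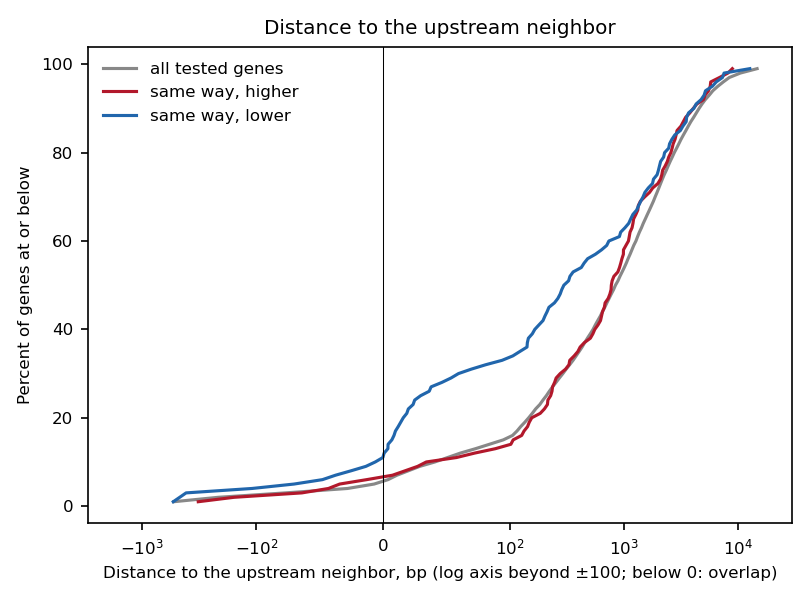
Percent of genes (vertical axis) whose upstream neighbor lies at or below a distance in bp (horizontal axis, logarithmic beyond 100 bp, overlaps below 0) for all tested genes in gray, the higher genes in red and the lower genes in blue. The blue curve reaches 50% at 299 bp, and the red and gray curves reach it at 780 bp and 848 bp.

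Both genes of a neighboring pair moved in 10 places, with both higher in 1, both lower in 6 and opposite in 3. The genes that moved the same way were 2.14% of all tested genes. Whether that share alone would give as many pairs was not tested, so the pairs are only listed. *RKF3* (-0.70) and AT2G48020 (-0.52) lie 121 bp apart on the same strand, and *AQI* (-0.60) and AT4G38225 (-0.79) lie 9 bp apart on the same strand. *FRO6* (-0.85) and *FRO7* (-0.52), which encode ferric reductases, are paralogs 706 bp apart. Upstream of the higher *CYP79F2*, *OCT3*, an organic cation transporter, was lower (-0.63).

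Motifs were searched on both strands from 250 bases before to 50 bases after the annotated start. TATAAA, the TATA box, was in 60.0% of promoters of the higher genes and 47.7% of those of the lower genes, beside 51.6% of all tested genes. TGGGCC was in 17.6% and 11.7%, beside 18.6%. CACGTG, the G-box, was in 11.2% and 9.33%, beside 8.91%. AAACCCTA was in 4.00% and 3.67%, beside 5.44%, and AAATATCT was in 8.00% and 6.0%, beside 5.95%. These shares describe letters in a window and not bound sites.

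In 4 genes each mutant was called on its own in the opposite direction, so the pooled comparison cancels them. *CTF7*, an acetyltransferase of sister chromatid cohesion, had 1.81, 1.42 and 0.971 CPM in wild type, 0.214, 0.438 and 0.413 CPM in *bdr1,2,3* and 6.06, 6.43 and 6.42 CPM in *fpa*, with no overlap between any of the groups. AT4G14090, annotated as a UDP-glycosyltransferase, followed the same order, with -2.17 in *bdr1,2,3* and 1.88 in *fpa*. *M17*, a late embryogenesis abundant protein, went the other way, with 1.2 and -1.52. The 3 pooled values were 0.11, -0.15 and -0.16, and none passed. On the opposite strand AT4G31398 overlaps *CTF7* by 770 bp, and AT4G06175 and AT4G14100 overlap AT4G14090 by 217 and 230 bp.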

How the data were processed

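RNA was measured by single-end sequencing of poly(A) libraries from whole seedlings, 3 per genotype. The authors aligned reads to TAIR10 with TopHat2 2.0.8, kept unique alignments with SAMtools 1.2 and deposited raw counts per gene from featureCounts. The strand setting is not given in the sources used here, and the labels and the methods name different versions of the TruSeq kit. Counts of genes overlapped on the opposite strand may thus hold reads of both genes, and not all such overlaps are given. Their table normalized with DESeq2 1.14.1 was not used. The labels do not say whether replicates were separate batches of plants, so p-values measure the spread between these libraries.

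Counts were fitted with edgeR 4.0.16 in R 4.3.3 (filterByExpr, TMM, quasi-likelihood test) with a term per genotype, and the mean of both mutants was contrasted with wild type. P-values were adjusted by Benjamini-Hochberg over 20413 genes at a threshold of 0.05. The procedure was tested on simulated data with equal changes in both mutants and the same spread for all genes. That setting does not cover mutants that differ or a library that stands apart. Organelle-encoded counts, 0.0318% to 0.1% (chloroplast) and 0.0259% to 0.0672% (mitochondria) per library, gave p = 0.286 and p = 0.214 for mutants against wild type (exact permutation tests, two-sided, smallest possible 0.0238).

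The genes described were the 4 mutated genes, the 12 higher and 12 lower genes without overlap, with a mean log2 CPM of 1 or more, ranked by the smaller of their changes in the 2 mutants, up to 4 called members per list with the smallest p-values, and 3 genes called in opposite directions. Other names complete a list or were chosen after their values were seen. The comparison, the rules and the 24 lists were chosen with earlier results of these data known. RefSeq's TAIR10.1 annotation, in which 98.5% of nuclear identifiers were found, gave positions and neighbors. Alternatives were DESeq2 1.42.0, scaling by RLE, testing genes of any count, testing those with 10 or more counts in each library, an adjusted p-value under 0.01, the mutants as 1 group, and leaving out each library.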

Additional observations from a re-analysis of the deposited data

Results flagged for a closer look

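In 17 of the genes described the mutants differed from each other in edgeR's test of *bdr1,2,3* minus *fpa*, so the pooled value averages unequal changes. The causes were not tested.

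The mutated *BDR* genes were lower in *bdr1,2,3* than in *fpa*, with differences of -5.18 for *BDR1* (AT5G25520, adjusted p = 1.59e-07 from edgeR), -1.20 for *BDR2* (AT5G11430, 0.00122) and -1.33 for *BDR3* (AT2G25640, 0.0185). Part of the latter 2 differences came from *fpa*, which was above wild type by 0.35 for *BDR2* and 0.57 for *BDR3*, and neither passed. Against wild type, *BDR3* did not pass in *bdr1,2,3*. The opposite genes had -4.14 (*CTF7*, adjusted p = 3.16e-05 from edgeR), -4.06 (AT4G14090, 1.73e-05) and 2.72 (*M17*, 0.000107).

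The following genes had fold changes of the same sign that were larger in *bdr1,2,3*, of which AT5G09240 and *MAF5* did not pass in *fpa* alone. The difference was -2.13 for AT5G09240 (adjusted p = 0.0244 from edgeR), 1.94 for *MAF5* (0.0444) and -3.91 for AT3G52155 (1.9e-06), annotated in the phosphoglycerate mutase family. AT3G52155 had 29.1, 34.7 and 23.9 CPM in wild type, 0.643, 0.756 and 1.44 CPM in *bdr1,2,3* and 12.3, 15.5 and 12.9 CPM in *fpa*. AT3G52160 overlaps AT3G52155 by 546 bp on the opposite strand. *NDB4*, a mitochondrial NAD(P)H dehydrogenase, had a difference of 2.83 (adjusted p = 0.00827 from edgeR). It had no count in wild type, 73, 70 and 63 counts in *bdr1,2,3* and 8, 13 and 6 counts in *fpa*. Against a floor of 3 counts over the wild-type group it was at least 60.5-fold higher in *bdr1,2,3* and at least 8.44-fold higher in *fpa*.

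Fold changes of the same sign were larger in *fpa* for *LHCA5* (0.92, adjusted p = 0.00604 from edgeR), *PPO1* (0.96, 0.00156) and *KIN2* (1.28, 0.00363), none of which passed in *bdr1,2,3* alone. The same held for *NdhN* (1.06, adjusted p = 0.00016 from edgeR) and *NdhO* (0.52, 0.0367), subunits of the chloroplast NADH dehydrogenase-like complex, of which *NdhN* did not pass in *bdr1,2,3* alone. AT1G26250, a proline-rich extensin-like gene, differed by 2.585 (adjusted p = 0.00027 from edgeR), with 12.7, 10.6 and 10.9 CPM in wild type, 4.33 to 6.82 CPM in *bdr1,2,3* and 0.571 to 1.3 CPM in *fpa*. AT1G26255 overlaps it by 1609 bp on the opposite strand, and with the strand setting unknown the counts may not all belong to AT1G26250. AT2G17340, a pantothenate kinase gene, differed by 1.12 (adjusted p = 0.00139 from edgeR). *NDB4*, *NdhN*, *NdhO*, AT3G52155, AT1G26250 and AT2G17340 were chosen after their values were seen.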

How the results depend on the processing

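No paired analysis was made because the labels do not link libraries of different genotypes. The genotypes share no replicate number, which does not show whether libraries were made in blocks. Direction in the refits was followed for 66 of the called genes described, and none changed it. Other called genes described, such as *BCAT4* and *CYP79F2*, were not followed in this way. The medians of the light reaction and seed storage lists went from -0.12 to 0.06 and from -0.43 to 0.08 without wild-type replicate 12. DESeq2 called 464 genes higher and 907 lower (342 and 534 without overlap), the mutants as 1 group gave 39 and 36 (39 and 36), and an adjusted p-value under 0.01 gave 51 and 146 (47 and 101). Each mutant called on its own gave 48 higher and 47 lower, and calls in all 9 leave-one-out fits, an alternative chosen after seeing the data, gave 53 and 114. Leaving out 1 library gave 68 to 223 higher and 213 to 711 lower calls, and 63 to 213 and 152 to 580 without overlap. The most higher and lower calls came without wild-type replicate 1, the fewest higher without wild-type replicate 5 and the fewest lower without *fpa* replicate 8. Without wild-type replicate 12, also chosen after seeing the data for the single comparisons, *bdr1,2,3* alone had 188 higher calls instead of 123, and *bdr1,2,3* against *fpa* had 721 higher and 844 lower instead of 282 and 440. The lower calls went from 0 to 1 in the autonomous pathway and from 1 to 2 in the salicylic acid list, and the higher heat shock call went from 1 to 0. The causes were not tested.

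Of the 66 called genes followed through the refits, 30 were called in every refit that tested them and 36 were lost in at least 1. Each had 13 or 14 refits, since 18 were too low for the filter of 10 counts. All 36 were lost with the mutants as 1 group, and 4 without wild-type replicate 12. The 30 include *FLC*, *SOC1*, *MAM1*, *CYP79F1*, *CYP83A1*, *IMD1*, *MYB29*, AT3G01345 and *MRD1*. Leaving out *fpa* replicate 8 ended 16 of these calls and leaving out wild-type replicate 5 ended 14.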

Other observations

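Several other groups were read after the values of their members had been seen, so their counts are descriptions. Glycine decarboxylase and other photorespiration genes recycle a side product of Rubisco. Of 18 tested, 4 were called lower and none higher, also 4 without wild-type replicate 12, beside 2.19% and 1.79% of all tested genes called lower, while the list's median was -0.06. *GLDP1*, a subunit of glycine decarboxylase, had 2897, 2921 and 3202 CPM in wild type, 1473, 1763 and 1286 CPM in *bdr1,2,3* and 2050, 1910 and 1565 CPM in *fpa* (-0.85, SE 0.14, adjusted p = 0.00433 from edgeR). Its paralog *GLDP2* had -0.67, *mtLPD1* -0.74 and *CAT2*, a peroxisomal catalase, -0.81. For *GLDP1* replicate 12 lay between the other wild-type libraries.

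Arabinogalactan proteins are glycoproteins of the cell surface. Of 41 tested, 9 were called lower and none higher, 7 without replicate 12, beside the same 2.19% and 1.79%, and the median went from -0.54 to -0.29 without it. *AGP15* had 502, 926 and 518 CPM in wild type, with replicate 12 highest, and 261 to 404 CPM in the mutants (-0.97, and -0.62 without that library). *FLA9* had 156, 247 and 187 CPM in wild type and 87.0 to 140 CPM in the mutants (-0.90).

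Of 15 other glucosinolate genes 5 were called higher, 4 without replicate 12, beside 0.735% and 0.681% of all tested genes. These include *GSTU20* (1.4), *FMO GS-OX3* (1.63), *IPMI1* (1.27) and *GGP1* (0.79). Of 7 subunit genes of the chloroplast NADH dehydrogenase-like complex 3 were called lower with and without replicate 12, beside 2.19% and 1.79% of all tested genes. With all libraries 2 of these had no overlap with wild type. The list's median was -0.17 in the pooled comparison, -0.30 in *bdr1,2,3* and 0.04 in *fpa*, so a lowering of the whole complex in both mutants was not shown. AT3G14140, a 2-oxoglutarate-dependent dioxygenase gene, had 0.362, 0 and 0.149 CPM in wild type, 1.54, 1.71 and 1.17 CPM in *bdr1,2,3* and 3.45, 3.40 and 3.09 CPM in *fpa* (3.41, SE 0.52, adjusted p = 0.00289 from edgeR).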
